A study of Homo sapiens with 6 samples.

Results

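Interferon response and antiviral sensing genes were followed in a human lung cancer line, the non-small cell (NSCLC) line PC9ER, with and without the EGFR kinase inhibitor gefitinib. The set was given as 40 gene symbols, from interferon receptors to interferon-induced effectors, with DDX58 as the older symbol of the RNA sensor RIG-I. Of these, 38 had a row among the 15376 coding genes of the table, and IFITM2 and XAF1 were not analysed here. RSAD2 had no read in any library, which left 37 tested among 15229 genes.

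Total RNA was sequenced in 6 libraries, 3 labelled as control and 3 as gefitinib. Control cells received the vehicle DMSO, and gefitinib cells received the drug at 1 µM over the last 6 h. The single protocol text for the series has 72 h of DMSO in place of a Notch inhibitor and a night without serum, in cells otherwise grown with 10% fetal calf serum. Whether the controls also went without serum is not stated, so any part of serum state cannot be told apart from that of the drug. All samples come from 1 cell line, and the labels do not say that replicates were separate cultures, so p-values measure only the spread between these libraries, which may be technical.

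Interferons are secreted alarm proteins. Type I interferons bind a receptor made of IFNAR1 and IFNAR2, and interferon gamma binds IFNGR1 and IFNGR2. The attached kinases JAK1 and TYK2 (with JAK2 for gamma) then activate STAT proteins, and a complex that holds STAT2 and IRF9 binds the interferon-stimulated response element (ISRE) at genes such as the IFIT family. Upstream of this loop, the helicases RIG-I and MDA5 (IFIH1) detect viral RNA and signal through MAVS and the kinase TBK1 to IRF3 and IRF7, which switch on interferon genes.

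The promoter letters of IFIT5, IFIT3, IFIT1 and DDX60 are shown because these genes had the largest falls among the members, and those of ISG15 because it carries the same letters and was not lower in any gefitinib library. The sequences are the 250 bases before each start site in RefSeq (GRCh38.p14), on the strand of the gene, with the core letters of an ISRE in capitals: TTTC, any 2 bases and TTTC, or on the other strand GAAA, any 2 bases and GAAA.
IFIT5: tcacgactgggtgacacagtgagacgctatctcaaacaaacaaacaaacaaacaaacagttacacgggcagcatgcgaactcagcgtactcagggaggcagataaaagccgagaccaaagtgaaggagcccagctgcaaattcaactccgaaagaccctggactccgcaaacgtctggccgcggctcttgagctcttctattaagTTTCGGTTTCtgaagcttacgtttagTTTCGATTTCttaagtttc
IFIT3: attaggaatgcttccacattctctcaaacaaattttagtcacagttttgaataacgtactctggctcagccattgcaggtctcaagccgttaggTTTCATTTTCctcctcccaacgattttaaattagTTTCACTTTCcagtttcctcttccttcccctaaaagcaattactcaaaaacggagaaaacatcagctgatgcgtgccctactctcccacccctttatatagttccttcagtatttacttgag
IFIT1: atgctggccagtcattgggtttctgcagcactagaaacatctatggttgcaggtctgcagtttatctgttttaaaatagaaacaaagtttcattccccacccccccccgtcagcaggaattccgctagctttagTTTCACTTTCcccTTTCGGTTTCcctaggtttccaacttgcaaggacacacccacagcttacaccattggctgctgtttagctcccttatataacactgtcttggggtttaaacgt
DDX60: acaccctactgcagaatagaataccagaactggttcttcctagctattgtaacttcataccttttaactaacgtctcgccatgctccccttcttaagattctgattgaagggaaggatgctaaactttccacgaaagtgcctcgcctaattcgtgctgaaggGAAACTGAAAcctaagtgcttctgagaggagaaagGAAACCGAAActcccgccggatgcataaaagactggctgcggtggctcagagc
ISG15: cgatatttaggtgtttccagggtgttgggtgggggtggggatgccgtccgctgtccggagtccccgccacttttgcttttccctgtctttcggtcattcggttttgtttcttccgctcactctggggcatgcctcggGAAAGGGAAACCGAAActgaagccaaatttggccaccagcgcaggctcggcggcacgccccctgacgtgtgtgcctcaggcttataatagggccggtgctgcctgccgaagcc
These stretches are chr10:89414318-89414567 for IFIT5, chr10:89327747-89327996 for IFIT3 (the first of its 2 windows), chr10:89392373-89392622 for IFIT1, chr4:168318753-168319002 (minus strand) for DDX60 and chr1:1013247-1013496 for ISG15. The matches began 45 and 19 bases before the start for IFIT5, 156 and 122 for IFIT3, 116 and 103 for IFIT1, 88 and 53 for DDX60, and 113 and 107 for ISG15, where they overlap each other. IFIT5 has 1 more match that crosses its start site.

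RefSeq windows from 250 bases before to 50 bases after a start were found for 30 of the 40 members, DDX58 through its current symbol RIGI. The ISRE letters, on either strand, stood in the windows of 17 of these 30, against 4.38% of 27305 genes with a window. The letters TTCNNNGAA, the form of the gamma-activated site (GAS), stood in 8 of 30, against 9.38% of genes, and an ISRE match overlapped a GAS match in 6 places. Among members with a window that were lower with gefitinib, 5 of 8 held the ISRE letters; among those that were higher, 1 of 5 did, among those not past the threshold, 10 of 15 did, and RSAD2, which had no reads, did as well. A match in these letters is a description of the window and does not show that a factor binds there.

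Coding genes took between 13674237 and 38581498 reads per library, and in the deposited values every library sums to 18085800, so values below are scaled reads. Control and gefitinib libraries were apart on principal component 1 (71.4% of the variance in log2 values), and component 2, with 9.59%, set control replicate 1 apart at 38.1 from control replicates 2 and 3 at -12.6 and -28.8, and gefitinib replicate 1 at 23.3 from gefitinib replicates 2 and 3 at -8.86 and -11.1. The epithelial marker EPCAM had 9066 to 10537 scaled reads in control and 11720 to 12377 in gefitinib libraries, so every gefitinib library was higher. CDH1 went the other way, with 11967 to 12458 in control and 10250 to 10888 in gefitinib libraries. The keratin genes KRT8, KRT18 and KRT19 were lower in every gefitinib library than in any control library (KRT19 12385 to 25456 in control and 8781 to 9375 in gefitinib libraries), and the 5 epithelial markers summed to 65981 to 89612 and 56432 to 58937. The lung markers NAPSA and SFTPB had at most 25.7 and 20.2. Summed blood markers (8 of 8 in the table) ranged from 19.0 to 33.2 in control and from 30.9 to 42.5 in gefitinib libraries, mostly from LYZ, with the leukocyte marker PTPRC at 0 in 4 libraries. Summed fibroblast markers (3 of 5 in the table) ranged from 32.4 to 71.4 and from 47.6 to 66.1. Summed endothelial markers (3 of 3) ranged from 1180.3 to 1360.1 in control and from 147 to 176 in gefitinib libraries, nearly all from PECAM1. Their part in the results below was not tested.

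With gefitinib the IFIT genes, the sensors DDX58 and DDX60, the receptor chains IFNGR2 and IFNAR1, IRF3 and the kinase gene EIF2AK2 fell. The kinase genes JAK1 and TYK2 and the transcription factor genes STAT2 and IRF9 rose. The IRF3, EIF2AK2 and IRF9 calls were lost in some alternative fits. Of the genes with few reads, IRF7, IFI27 and MX2 rose and IFIT1 fell, with the MX2 call also lost in some fits. Of the 37 members tested, 7 were higher and 10 lower at a limma adjusted p under 0.05, and 20 did not pass. That is 18.9% and 27.0%, beside 28.3% higher and 22.8% lower over all genes. Groups did not overlap for 7 members higher in gefitinib and 13 lower, beside 32.3% and 25.7% of all genes. Of the 25 members with a mean of 20 scaled reads or more, 4 were higher and 9 lower (16.0% and 36.0%), beside 32.5% and 27.6% of all genes at that level. On whole reads edgeR called 6 members higher and 11 lower of 28 tested, beside 30.5% and 30.8% of its 12167 genes. The lower share of the whole set was thus near the background, and the values of single genes carry the description. The median log2 difference was -0.06 over the 37 members and -0.25 over the 25, beside 0.10 for all genes and 0.07 for those with a mean of 20 or more. In bulk RNA, less RNA per cell and fewer cells that express a gene cannot be told apart. These differences are gefitinib minus control on log2(scaled reads + 1), a scale that understates the change of low genes.

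**Figure D1:**
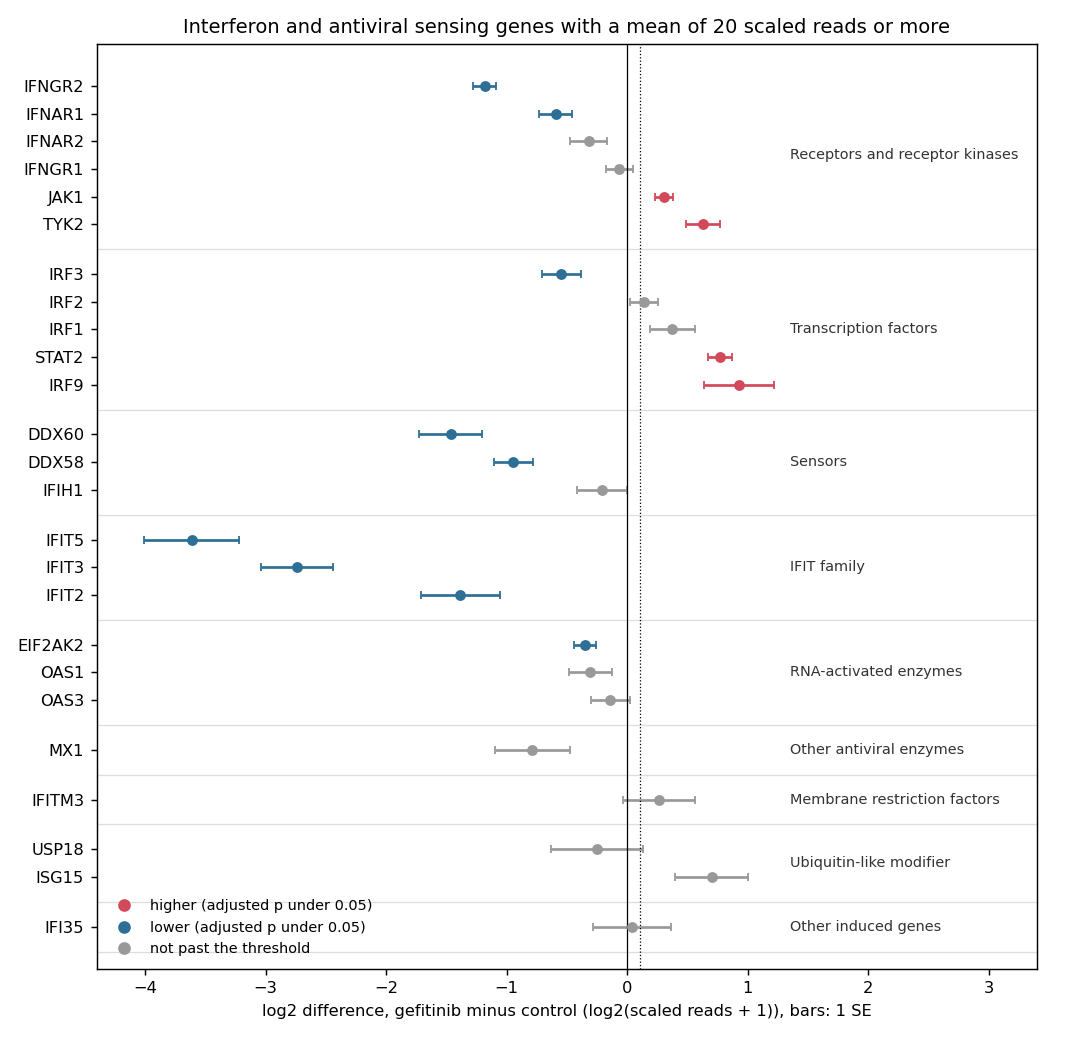
Log2 difference (gefitinib minus control, x axis) with 1 standard error for the 25 members with a mean of 20 scaled reads or more, grouped by role; the dotted line is the median of all tested genes, 0.10. IFIT5 and IFIT3 lie farthest to the left, followed by DDX60 and IFIT2, and STAT2, IRF9, TYK2 and JAK1 lie to the right of 0.

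Among the receptor chains, 2 of 4 passed the threshold, both lower. IFNGR2, the accessory chain of the interferon gamma receptor, had 864, 822 and 827 scaled reads in control and 370.3, 376 and 360.5 in gefitinib libraries. The groups were far apart and tight, with means of 838 ± 22.9 (SD, n = 3) and 369 ± 7.82, a difference of -1.18 ± 0.10 (SE; limma adjusted p = 1.4e-05). IFNAR1, the signalling chain of the type I receptor, had 1376, 1086 and 1004 in control and 820.0, 804 and 661 in gefitinib libraries. It did not overlap either, at -0.59 ± 0.14 (limma adjusted p = 0.00582), with control replicate 1 the highest.
The partner chains moved less. IFNAR2, which binds type I interferon together with IFNAR1, had 243, 238 and 224 against 164, 203 and 199, which do not overlap but missed the threshold at -0.32 ± 0.15 (limma adjusted p = 0.109). IFNGR1, the ligand-binding chain for interferon gamma, had 2415, 1927 and 1955 against 2215, 1994 and 1799.6, which overlap (-0.06 ± 0.11, limma adjusted p = 0.666). Exons of IFNAR2 overlap those of a fused gene model, and those of IFNGR2 overlap TMEM50B on the other strand, so some reads there are of uncertain origin.

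Both kinase genes passed, in the higher direction. JAK1, the kinase shared by both receptors, rose by little: 3242, 3284 and 3303 scaled reads in control and 4255, 4119.9 and 3814 in gefitinib libraries. Its difference was 0.31 ± 0.07 (SE; limma adjusted p = 0.00651), with no overlap. TYK2, the kinase bound to IFNAR1, had 581, 821 and 752 in control and 984, 1214 and 1114 in gefitinib libraries. All gefitinib values were higher, at 0.63 ± 0.14 (limma adjusted p = 0.00479), and control replicate 1 was the lowest.

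Among the transcription factors, the partners of the ISRE-binding complex were higher. STAT2 had 875, 818 and 708 scaled reads in control and 1325, 1427 and 1332 in gefitinib libraries, with no overlap. Its means were 800.0 ± 85.0 and 1362 ± 56.8 (SD, n = 3), a difference of 0.77 ± 0.10 (SE; limma adjusted p = 0.000219). IRF9, the DNA-binding partner of STAT2, had 34.6, 21.2 and 21.2 against 47.6, 52.4 and 45.5. Every gefitinib library was above every control library (0.93 ± 0.29, limma adjusted p = 0.0230), yet the call was lost with DESeq2 (adjusted p = 0.0551) and without control replicate 2 (limma adjusted p = 0.0797), control replicate 3 (0.0650), gefitinib replicate 2 (0.0827) or gefitinib replicate 3 (0.0532). Exons of IRF9 also belong to a fused gene model on the same strand, so its reads can be split.

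IRF3, the factor that the RNA sensors activate first, went the other way. It had 1027, 1419 and 1645 scaled reads in control and 835, 1010.3 and 912 in gefitinib libraries, with control replicate 1 just above the highest gefitinib library. The difference of -0.55 ± 0.16 (SE; limma adjusted p = 0.0194) was larger without control replicate 1, at -0.74 (adjusted p = 0.000184), and missed the threshold without control replicate 2 (0.0693), control replicate 3 (0.0538), gefitinib replicate 1 (0.0831) or gefitinib replicate 3 (0.0536). Exons of IRF3 overlap BCL2L12 on the other strand. IRF1, an interferon-gamma responsive factor, had 166, 193 and 202 against 302, 235 and 199, and IRF2, its relative and frequent antagonist, had 462, 494 and 433 against 553, 502 and 475. Both overlapped between groups and missed the threshold (0.37 ± 0.19 and 0.14 ± 0.11; limma adjusted p = 0.126 and 0.349).

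Of the sensors of foreign nucleic acid, the gene for RIG-I fell and that for its relative MDA5 did not pass. DDX58, which encodes RIG-I (chromosome 9, 32455705 to 32526324, GRCh38), had 720.2, 586 and 571 scaled reads in control and 385, 328 and 267 in gefitinib libraries. No values overlapped, at -0.94 ± 0.16 (SE; limma adjusted p = 0.00095). DDX60, a helicase described as a helper of RIG-I (chromosome 4, 168216293 to 168318807), had 126, 98.2 and 86.9 against 42.3, 40.7 and 28.1. It fell further, by 1.46 ± 0.26 on the log2 scale (limma adjusted p = 0.00132). IFIH1, which encodes MDA5, had 189.8, 142 and 168 against 163, 160.0 and 112, which overlap (-0.21 ± 0.21, limma adjusted p = 0.436). DDX58 and DDX60 kept their calls in all 15 alternatives run.

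**Figure D2:**
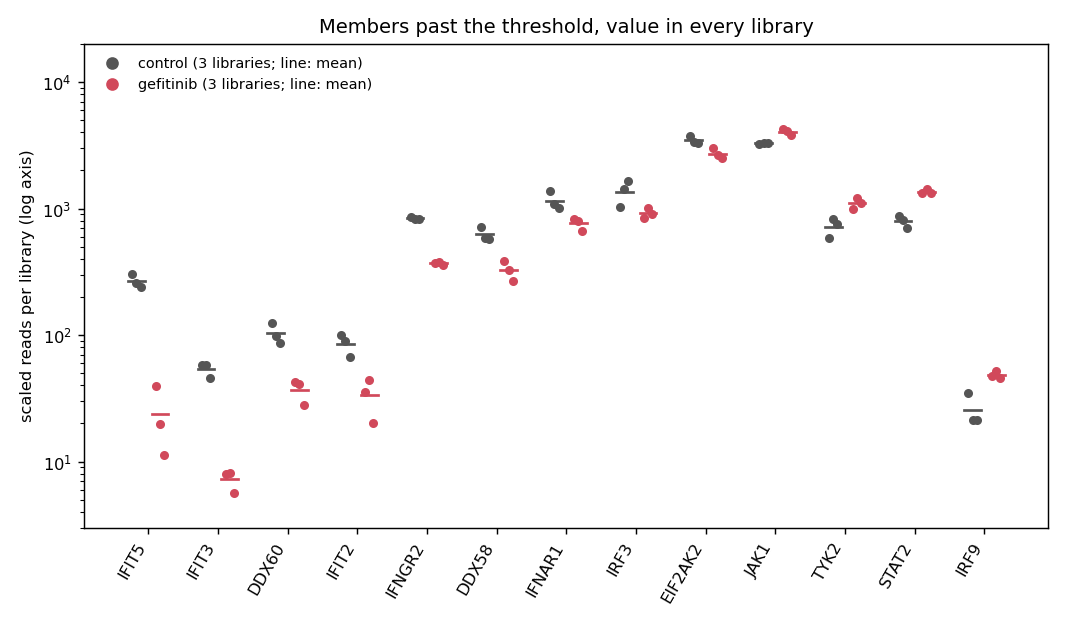
Scaled reads in every library (log axis) for the 13 members past the threshold with a mean of 20 scaled reads or more, in the order of their log2 difference; points are libraries and lines are group means. The IFIT genes, DDX58 and DDX60 are lower in every gefitinib library, and IRF3 is the member whose groups come closest together among those that fell.

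The IFIT genes, whose proteins bind foreign RNA and block its translation, all fell. IFIT5, which binds RNA with a 5′ phosphate, had 306, 257 and 240.4 scaled reads in control and 39.7, 19.9 and 11.3 in gefitinib libraries. Its means of 268 ± 34.3 and 23.6 ± 14.6 (SD, n = 3) differ by -3.61 ± 0.39 (SE; limma adjusted p = 6.65e-05), the largest change among the members. Its gefitinib reads, 30, 22 and 24, were close in number although depths differed, so the scaled values spread from 11.3 to 39.7. IFIT3, a partner that stabilises IFIT1, had 57.8, 58.0 and 45.4 against 7.94, 8.13 and 5.63. It fell by 2.74 ± 0.30 on the log2 scale (limma adjusted p = 6.95e-05). IFIT2, which can promote cell death when abundant, had 100.2, 89.2 and 67.6 against 35.7, 44.3 and 20.2. It fell by 1.38 ± 0.33 (limma adjusted p = 0.00619) and so kept more of its control level than IFIT3 or IFIT5; that contrast between genes was not tested. IFIT1, which recognises RNA caps that lack host methylation, is among the low genes, with 29, 20 and 14 whole reads in control and 2, 3 and 3 in gefitinib libraries. In scaled reads that is 18.8 ± 4.64 and 2.25 ± 0.735, and it fell by 2.60 ± 0.37 (limma adjusted p = 0.000345). All 4 kept their calls in the 15 alternatives, edgeR and DESeq2 on whole reads among them.

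The 4 genes lie close together on chromosome 10 (GRCh38), IFIT2 at 89283694 to 89309276, IFIT3 at 89327894 to 89340971, IFIT1 at 89392546 to 89406486 and IFIT5 at 89414586 to 89421001. The coding genes around them, picked by position after the member values were seen, moved unevenly. The death receptor gene FAS, before the cluster, fell by 1.60 ± 0.21 (SE; limma adjusted p = 0.000222), somewhat further than IFIT2. LIPA, a lysosomal lipase gene whose annotated span covers part of the cluster, changed by -0.57 ± 0.11 (limma adjusted p = 0.00197). Exons of IFIT2 overlap LIPA on the other strand (65 bases) and AL353751.1 on the same strand (356 bases). Some IFIT2 reads are therefore of uncertain origin. PANK1, a coenzyme A synthesis gene beyond the cluster, changed by -0.39 ± 0.14 (limma adjusted p = 0.0394). The PANK1 call was lost without any 1 library other than gefitinib replicate 1, with limma adjusted p from 0.0508 to 0.134. SLC16A12 and ACTA2 did not pass (limma adjusted p = 0.818 and 0.670), with means under 6 scaled reads. On chromosome 21, IFNAR2, IL10RB, IFNAR1 and IFNGR2 lie between 33229901 and 33479348. Within this receptor cluster IFNAR1 and IFNGR2 fell while IL10RB, a shared chain for interleukin-10 and interferon lambda, rose by 0.47 ± 0.14 (limma adjusted p = 0.0169; 0.0642 without gefitinib replicate 2), and TMEM50B, which overlaps the end of IFNGR2, rose by 1.22 ± 0.12 (limma adjusted p = 3.5e-05). The flanking genes also moved in both directions. GART, a purine synthesis gene after the cluster, fell by 1.42 ± 0.08, further than IFNGR2, and SYNJ1, a phosphoinositide phosphatase gene before it, changed by 1.415 ± 0.11 (limma adjusted p = 1.92e-06 and 8.53e-06). PAXBP1, beside SYNJ1, was at 0.40 ± 0.13 (limma adjusted p = 0.0272), a call lost with TMM or DESeq2 size factors, edgeR, DESeq2 and limma-voom and without control replicate 2, control replicate 3, gefitinib replicate 2 or gefitinib replicate 3 (adjusted p from 0.0611 to 0.102). DNAJC28, beside GART, was at -1.50 ± 0.53 with overlapping groups (limma adjusted p = 0.0397), a call lost without control replicate 1, control replicate 3, gefitinib replicate 2 or gefitinib replicate 3 (0.052 to 0.133).

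**Figure D3:**
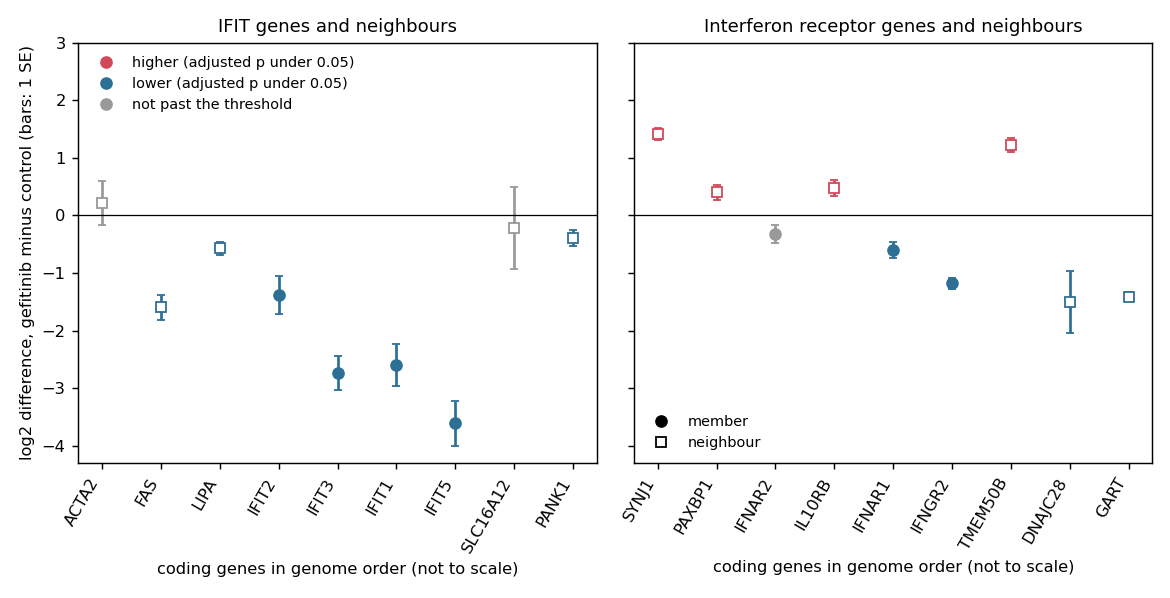
Log2 difference (y axis, gefitinib minus control, bars 1 standard error) of coding genes in genome order, not to scale, for the IFIT cluster (left) and the interferon receptor cluster (right); filled circles are members and open squares are neighbours. The 4 IFIT genes are lower than LIPA and PANK1, while FAS lies slightly below IFIT2. IL10RB, between IFNAR2 and IFNAR1, and TMEM50B, which overlaps IFNGR2, are above 0.

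Among the OAS genes and PKR, enzymes of the response to double-stranded RNA, 1 of 5 passed the threshold. EIF2AK2, which encodes the kinase PKR, had 3717, 3340.1 and 3301 scaled reads in control and 3009, 2653 and 2489.6 in gefitinib libraries. It fell by 0.35 ± 0.09 (SE; limma adjusted p = 0.0117), a call lost without gefitinib replicate 2 (adjusted p = 0.0554) or gefitinib replicate 3 (0.0539). OAS1, a synthase of the messenger that activates RNase L, had 181, 181 and 237 against 153, 148 and 180.5. It did not overlap but missed the threshold (-0.31 ± 0.18, limma adjusted p = 0.183). OAS3, the longest enzyme of that family, had 245, 298 and 356 against 269.8, 283 and 254, which overlap (-0.14 ± 0.16, limma adjusted p = 0.503).

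The remaining effectors with a mean of 20 scaled reads or more did not pass. MX1, a GTPase that traps viral nucleocapsids, had 30.3, 29.01 and 25.1 against 14.5, 12.7 and 21.6. All gefitinib libraries were lower, at -0.79 ± 0.31 (SE; limma adjusted p = 0.0598), and it was called lower in 7 of 15 alternatives, among them edgeR (adjusted p = 0.0466) and TMM scaling (0.0467), but not with DESeq2 (0.123). ISG15, a ubiquitin-like modifier, had 17.6, 15.6 and 21.2 against 38.4, 24.4 and 28.6. Here all gefitinib libraries were higher, without passing in the reported fit or any alternative (0.70 ± 0.30, limma adjusted p = 0.0813). USP18, which removes ISG15 from proteins and restrains the receptor, had 17.6, 43.5 and 27.0 against 25.1, 17.2 and 28.1 (-0.25 ± 0.38, limma adjusted p = 0.614); a near-identical copy of this gene makes its reads uncertain. IFITM3, which blocks virus entry at membranes, had 38.1, 49.1 and 79.2 against 64.8, 71.4 and 56.3 (0.27 ± 0.30, limma adjusted p = 0.495), and shares sequence with IFITM1 and IFITM2. IFI35 had 40.9, 64.7 and 97.5 against 59.5, 76.8 and 61.9, with a difference of 0.04 ± 0.32 that was -0.02 with TMM scaling (limma adjusted p = 0.924 and 0.954). For USP18, IFITM3 and IFI35 the control libraries spread more widely than the gefitinib libraries.

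Several classical interferon-induced genes had few reads. Of the 13 members with a mean under 20 scaled reads, 3 were higher, 1 lower, 8 did not pass and RSAD2 could not be tested. IRF7, the interferon-inducible relative of IRF3, had 5, 5 and 13 whole reads in control and 21, 26 and 73 in gefitinib libraries. In scaled reads it rose from 7.22 ± 4.73 to 28.5 ± 5.40 (SD, n = 3), by 1.98 ± 0.43 (SE; limma adjusted p = 0.00416), and the call held in all 15 alternatives. IFI27, a mitochondrial protein gene widely used as an interferon marker, had 1, 1 and 2 reads against 7, 9 and 34. Its scaled means were 1.25 ± 0.624 and 11.1 ± 4.22 (limma adjusted p = 0.00095), and edgeR's filter on low counts left it out. MX2, a relative of MX1 that acts at the nuclear pore, had 14, 3 and 3 reads against 6, 18 and 44, and its scaled values overlap. It was past the threshold (1.39 ± 0.51, limma adjusted p = 0.0447) but not with DESeq2 (adjusted p = 0.114), with a block for the replicate number (0.0887), or without control replicate 2 (0.132), control replicate 3 (0.121), gefitinib replicate 2 (0.126) or gefitinib replicate 3 (0.155).

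For the other low members no difference was detectable at this depth. OASL, an OAS relative without synthase activity, had between 4 and 11 reads in a library, IFI6 between 3 and 16, and the exonuclease gene ISG20 between 2 and 7. IFI16, a nuclear DNA sensor, had between 1 and 5 reads, OAS2 between 0 and 3, and IFITM1 between 0 and 2. IFI44 had 4 reads in gefitinib replicate 3 and IFI44L 1 read in gefitinib replicate 1, with none in the other libraries. RSAD2, which encodes the radical enzyme viperin, had 0 in all 6. A count of 0 allows up to 3 reads in a library, which is from 1.41 scaled reads in gefitinib replicate 3 to 3.97 in gefitinib replicate 1; this covers counting error only, since reads made by PCR are not independent molecules.

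**Figure D4:**
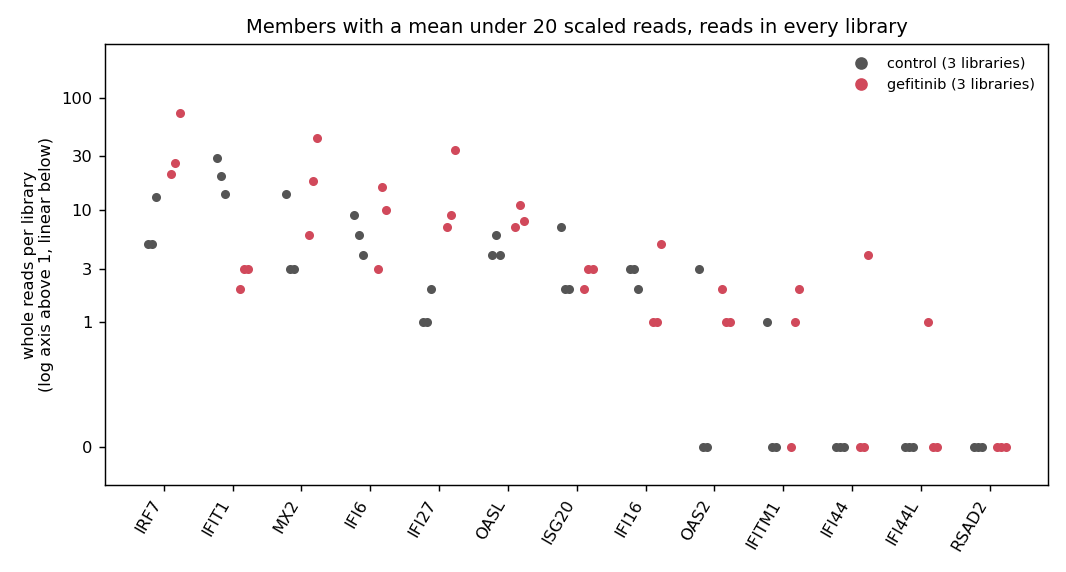
Whole reads in every library (y axis, logarithmic above 1 and linear below) for the 13 members with a mean under 20 scaled reads; points are libraries, which differ in depth. IFIT1 is lower and IRF7 and IFI27 are higher in every gefitinib library, and IFI44, IFI44L and RSAD2 are at 0 in all control libraries.

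Levels can be compared only roughly between genes, per kilobase of annotated exon. That length joins the exons of all annotated transcripts of a gene, for example 10753 bases for EIF2AK2 and 3794 for IRF3. Where the expressed transcripts are shorter, the level is understated, and which transcripts were expressed was not examined. In control cells the most abundant members on this scale were IFNGR1 at 640.4 ± 83.6 scaled reads per kilobase (SD, n = 3), JAK1 at 519 ± 4.96, IRF3 at 359 ± 82.4, EIF2AK2 at 321 ± 21.3 and IFNGR2 at 283 ± 7.73. IRF3 and EIF2AK2 did not differ beyond their spread. With gefitinib JAK1, at 643 ± 35.7, and IFNGR1, at 611 ± 63.5, were within their spread of each other, followed by EIF2AK2 at 253 ± 24.7, IRF3 at 242 ± 23.2 and STAT2 at 223 ± 9.29. IFNGR2 was then at 125 ± 2.64. The IFIT genes ranged in control cells from 66.7 ± 8.54 for IFIT5, above IFNAR2 at 50.9 ± 2.16, to 4.07 ± 1.01 for IFIT1.

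Lists of other pathway genes, which hold no member, give the surroundings. Of 16 adaptors and regulators of nucleic acid sensing, 5 were higher and 6 lower (31.2% and 37.5%, beside 28.3% and 22.8% of all genes). MAVS, the mitochondrial adaptor on which RIG-I and MDA5 converge, went from 2903, 3390.3 and 3449.9 scaled reads in control to 878, 911 and 920.2 in gefitinib libraries. Those groups are far apart, at -1.84 ± 0.09 (SE; limma adjusted p = 1.37e-06). TRAF3, a ubiquitin ligase that MAVS recruits, fell by 1.68 ± 0.12 (limma adjusted p = 5.4e-06). MB21D1, which encodes the DNA sensor cGAS, the adaptor genes MYD88 and TICAM1 and the kinase gene IKBKE also fell, while TBK1 had 1621 ± 224 and 1471.5 ± 197 (SD, n = 3) and did not pass (limma adjusted p = 0.403). RIPK1, a kinase of death receptor signalling, rose by 1.70 ± 0.11 and RNF135, a ubiquitin ligase for RIG-I, by 1.29 ± 0.10 (limma adjusted p = 4.81e-06 and 1.27e-05). The other risers were RNF125, ZBP1 and ZC3HAV1. RNF125 had 1.44 and 26.9 scaled reads on average and ZBP1 0.322 and 6.02. MAVS, RIPK1, TRAF3 and RNF135 are named because they had the smallest p of this list, and the others were chosen after their values were seen.

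Of 44 further interferon-stimulated genes, 17 were lower and 3 higher (38.6% and 6.82%, beside 22.8% and 28.3% of all genes), with a median of -0.38 beside 0.10. GBP1, a guanylate-binding protein gene responsive to interferon gamma, had 202, 169.6 and 167 scaled reads in control and 22.5, 10.8 and 12.7 in gefitinib libraries. It fell by 3.53 ± 0.30 on the log2 scale (limma adjusted p = 1.78e-05). The apolipoprotein L genes APOL6 and APOL2 fell by 1.81 ± 0.14 and 1.41 ± 0.13 and the ADP-ribosyltransferase gene PARP12 by 1.26 ± 0.13. The chemokine gene CXCL10, named after its values were seen, had 56, 29 and 19 reads in control and 0, 1 and 3 in gefitinib libraries. The risers, named in the same way, were SAMHD1, a nucleotide-depleting restriction factor, at 0.51 ± 0.10, LAMP3 at 1.07 ± 0.23 and TRIM21 at 0.55 ± 0.17. The TRIM21 call was lost in 4 of 15 alternatives.

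**Figure D5:**
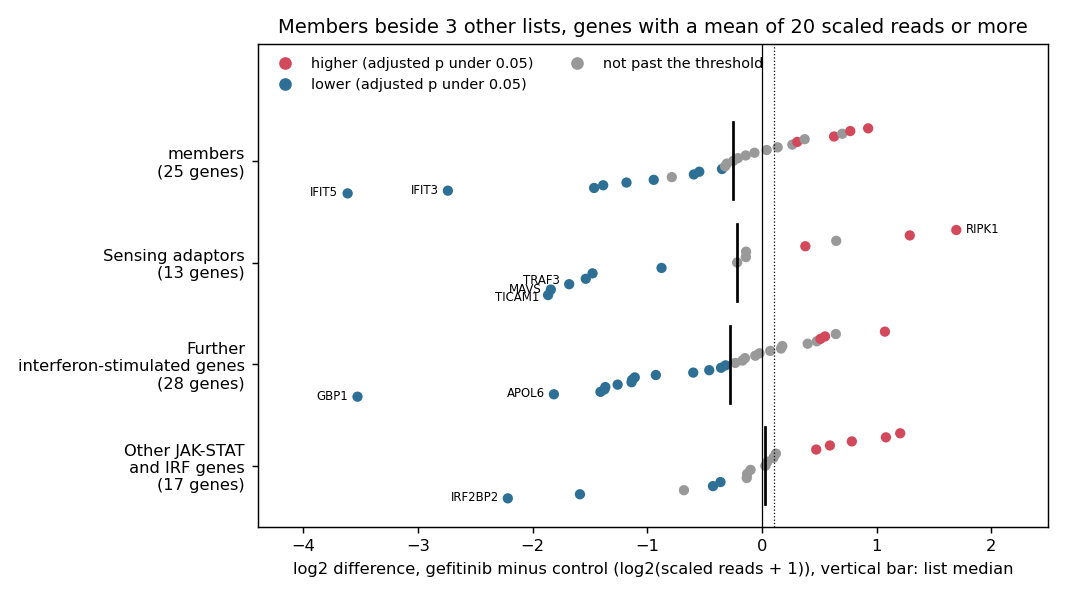
Log2 difference (x axis, gefitinib minus control) of single genes with a mean of 20 scaled reads or more in the members and 3 other lists; each point is a gene, black bars are list medians and the dotted line is the median of all tested genes, 0.10. IFIT5 and IFIT3 among the members and GBP1 among the further interferon-stimulated genes lie farthest to the left.

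Of 20 other JAK-STAT and IRF genes, 6 were higher and 4 lower, beside 28.3% and 22.8% of all genes. JAK2, the second kinase of the interferon gamma receptor, rose by 1.21 ± 0.20 (SE; limma adjusted p = 0.000802). STAT6, the factor of interleukin-4 signalling, fell by 1.59 ± 0.11, and the IRF2 corepressor gene IRF2BP2 fell by 2.22 ± 0.09 (limma adjusted p = 4.5e-06 and 6.3e-07). Of the 10 interferon genes listed, IFNE alone had a row, with at most 4 reads in a library, and the others were not analysed here.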

How the data were processed

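RNA was measured in 3 control and 3 gefitinib libraries, grouped by their titles. Per the submitters' processing notes, reads were aligned and counted with STAR and HTSeq on GRCh38; versions and the use of strand are not given in the sources used here. Values for coding genes are a deposited signal: reads per gene, scaled by the authors so that all libraries have the same sum. Dividing by the value of 1 read gave whole reads for 100% of values above 0 (tolerance 0.01 read). A second deposited table has 6 per-sample columns whose names match no label; they were not used, and its other columns served to look up gene IDs and positions. Gene coordinates are from GENCODE release 29. Exons of further members, among them EIF2AK2, IRF1, OAS1 and MX1, also overlap other annotated genes on the other strand. Rows at 0 in every library (147) were left out.

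The reported 2-sided test was limma-trend 3.58.1, run in R 4.3.3 after a log2 transform with a pseudocount of 1; p-values were adjusted by Benjamini-Hochberg over 15229 genes, with a threshold of 0.05. On the recovered reads edgeR 4.0.16 called 3707 genes higher and 3752 lower of 12167 tested; DESeq2 1.42.0 and limma-voom were also run. Other alternatives were pseudocounts of 0.5 and 5, a mean of 10 or more, TMM and DESeq2 size factors, a replicate block and leaving out each library. The test was tried on simulated data. Replicates all differed by more than sampling noise. The members and lists were chosen with earlier results of these data known. All members are named, and up to 4 genes with the smallest p from each other list; some genes of these lists are not reported here.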

Additional observations from a re-analysis of the deposited data

How the results depend on the processing

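Over the alternatives, between 5 and 7 members were higher and between 9 and 11 lower, against 7 and 10 in the reported fit; edgeR on whole reads gave 6 and 11 of 28 tested. Leaving out 1 library gave from 5 to 7 higher and from 9 to 10 lower members, and from 3467 to 4582 higher and from 2861 to 4001 lower genes overall. Of the 17 called members, 13 kept their call in every alternative that gave a value and none changed sign; the exceptions were IRF3, IRF9, EIF2AK2 and MX2. TMM scaling moved the median over all genes from 0.10 to 0.04. Members and other genes that missed the threshold changed sign in places. IFI35 was at -0.025 with TMM, -0.022 with DESeq2 size factors, -0.073 with edgeR and -0.083 with DESeq2. Leaving out 1 library gave from -0.27 to 0.34 for IFI35, from -0.14 to 0.040 for IFNGR1, from -0.46 to 0.053 for ISG20, from -0.56 to 0.071 for USP18 and from -0.29 to 0.53 for IFI6. For genes outside the set it gave from -0.81 to 0.30 for IFNE, from -0.071 to 0.39 for ACTA2 and from -0.99 to 0.17 for SLC16A12. The causes were not tested.

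Same-numbered libraries deviated together with correlations of 0.05, 0.03 and 0.03 over all tested genes. These give low, noisy genes the same weight as others, so pairing by replicate number was neither shown nor excluded. On component 2 both replicate 1 libraries had positive scores (38.1 for control and 23.3 for gefitinib) and the others negative ones. A replicate block gave 6 higher and 10 lower members, and 5 in place of 3 of the further interferon-stimulated genes were then higher. The shallowest library limits the low members, where 1 read is worth 1.32 scaled reads.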
